A study of Mus musculus with 4 samples.

Results

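The genes described here are the vascular endothelial growth factors, their receptors and the neuropilins: 4 ligand genes (Vegfa, Vegfb, Vegfc and Pgf), 3 receptor tyrosine kinase genes (Flt1, Kdr and Flt4) and 2 neuropilin genes (Nrp1 and Nrp2). The members were chosen by name, as every probe set that the platform annotation assigns to 1 of these 9 genes alone. That rule found 22 of the 45037 probe sets tested, for 9 of the 18193 genes named on the array. Their transcripts were read on 4 Affymetrix mouse arrays, 1 per sorted cell sample of a chemically induced squamous cell carcinoma of the skin, the malignant stage of these tumours. The cells came from tumours that carried a green fluorescent reporter for the transcription factor Sox2, and were sorted as live Epcam-positive epithelial cells without the leukocyte marker CD45, the endothelial marker CD31 and the mesenchymal marker CD140a. The groups were Sox2-GFP-positive cells (n = 2 arrays) and Sox2-GFP-negative cells (n = 2 arrays), from 2 tumours of 2 mice according to the series text. Some arrays must therefore share a tumour, but the labels do not say which, nor whether each tumour gave cells of both groups. The tests below take no account of tumours unless a replicate block is named, which takes the replicate number as a tumour. All groups thus share the carcinogen treatment, the reporter and the epithelial gate, while the labels name neither the strain, the age of the mice nor the chemical agents. In bulk samples such as these, fewer cells of a type and less RNA per cell cannot be told apart.

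Ligands of this family are secreted and bind receptor tyrosine kinases that are best known from endothelial cells. VEGF-A, made by keratinocytes and by many tumour cells, acts through Flt1 and Kdr and drives the sprouting and leakiness of blood vessels. VEGF-B and placental growth factor bind Flt1, and VEGF-C binds Flt4, the receptor of lymphatic endothelium. Neuropilins are co-receptors that lack a kinase, bind VEGF family ligands and class 3 semaphorins, and are made by endothelium, neurons, fibroblasts, some myeloid cells and some carcinoma cells.

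The stretch of DNA before the transcription start is shown for ligand genes, whose probe sets all read higher in the positive cells, and for Flt1, the receptor gene with the widest difference. Sequences are from RefSeq on GRCm38.p6, 5′ to 3′ on the gene's own strand, and capitals mark matches to any motif searched. For Vegfa (chr17:46032378-46032627, minus strand) and Vegfb (chr19:6987652-6987901, minus strand) these are the 250 bases before the start. For Pgf (chr12:85177336-85177365, minus strand) and Flt1 (chr5:147726019-147726048, minus strand) they are 30 bases that end 23 and 8 bases before it.
Vegfa: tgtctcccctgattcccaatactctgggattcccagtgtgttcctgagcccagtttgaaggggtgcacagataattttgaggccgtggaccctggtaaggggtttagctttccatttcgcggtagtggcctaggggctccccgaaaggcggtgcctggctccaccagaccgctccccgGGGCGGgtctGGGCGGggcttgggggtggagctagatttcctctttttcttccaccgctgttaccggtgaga
Vegfb: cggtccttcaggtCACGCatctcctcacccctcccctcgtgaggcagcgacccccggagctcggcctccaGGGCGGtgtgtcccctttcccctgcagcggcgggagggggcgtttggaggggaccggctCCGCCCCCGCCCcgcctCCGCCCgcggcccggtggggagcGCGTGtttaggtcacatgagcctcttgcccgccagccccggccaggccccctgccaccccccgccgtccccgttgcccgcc
Pgf: gtGGGCGGgcaggctgcagccCCGCCCcat
Flt1: aaaggtTATAAAtcgcccCCGCCCtcggct

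The motifs searched on both strands were the GC box GGGCGG, the hypoxia-inducible factor cores ACGTG and GCGTG, the SOX cores ACAAAG and ACAATG, the ETS core CCGGAA and the TATA box TATAAA. Some matches to the GC box and to GCGTG lie side by side or overlap. In the 250 bases before the start, a GC box was found in 9 of the 9 members, against 32.7% of 32851 promoter windows of the same length. The member windows held 59.2% (Vegfa) to 76.4% (Vegfb) G and C, and the shares over all windows were not matched for base content. For Pgf, Nrp1, Flt1 and Kdr the start used lies inside the gene coordinates given below, so their windows overlap the gene. GCGTG was found in 6 members (28.2% of all windows), whereas no member had ACGTG (16.6% of all windows) or a SOX core (16.5% for ACAAAG, 10.7% for the other). The table holds a second start for Vegfa and for Pgf, which was not counted here. The window before the second Vegfa start (chr17:46025164-46025413) lies inside the Vegfa gene itself. It holds both ACGTG and GCGTG, but it is not sequence upstream of the gene. Flt1 alone had a TATAAA match (12.4% of all windows), 31 to 26 bases before its start, and Kdr alone had CCGGAA (12.0% of all windows). A match is a description of the letters in this window and does not show binding.

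The arrays were alike in scale, with medians of 5.49 and 5.51 in positive and of 5.60 and 5.56 in negative cells and lower quartiles of 4.19 to 4.25. Values are log2 as deposited, and differences are positive minus negative. Epcam was bright on all arrays (10.75 and 11.79 in positive, 11.24 and 11.80 in negative cells), and Sox2 itself lay near the array floor in all of them (3.14 to 3.50), so its transcript did not separate the groups and gives no check of the labels. The negative replicate 1 array stood apart in transcripts of cells that the gate removes: Pecam1, which encodes CD31, read 8.44 there and 5.57 to 6.41 on the other arrays. The receptor genes and Nrp1, by their brightest probe sets, and the marker lists that were high on that array are also given without it. For other genes this is given only where stated. No probe set of the 45037 passed an adjusted p of 0.05 in limma (lowest adjusted p = 0.226), so 0% of all probe sets were called in either direction. At an unadjusted p under 0.05 lay 7.44% of all probe sets above and 6.61% below. An exact permutation test of 2 against 2 arrays cannot go below a two-sided p of 0.333.

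All ligand probe sets read higher in Sox2-GFP-positive cells, and all receptor probe sets read lower on average. Both positive arrays lay above both negative arrays for 7 of 7 ligand probe sets, beside 29.7% of all probe sets. Both lay below for 2 of 7 receptor probe sets, beside 18.4% of all probe sets, and for 1 of 8 neuropilin probe sets. Of the 7 ligand probe sets, 3 read Vegfc, which was dim, and 2 read Vegfa. By the brightest probe set of each gene, 4 of 4 ligands lay above and 1 of 3 receptors below, beside 35.5% and 14.0% of all genes. The median log2 difference was 0.58 over the ligand probe sets, -0.23 over those of the neuropilins and -0.85 over those of the receptors, against 0.07 over all probe sets. None of the 22 passed the limma test (adjusted p = 0.265 to 0.996). At an unadjusted p under 0.05 there were 4 ligand probe sets above and 1 receptor probe set below.

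**Figure D1:**
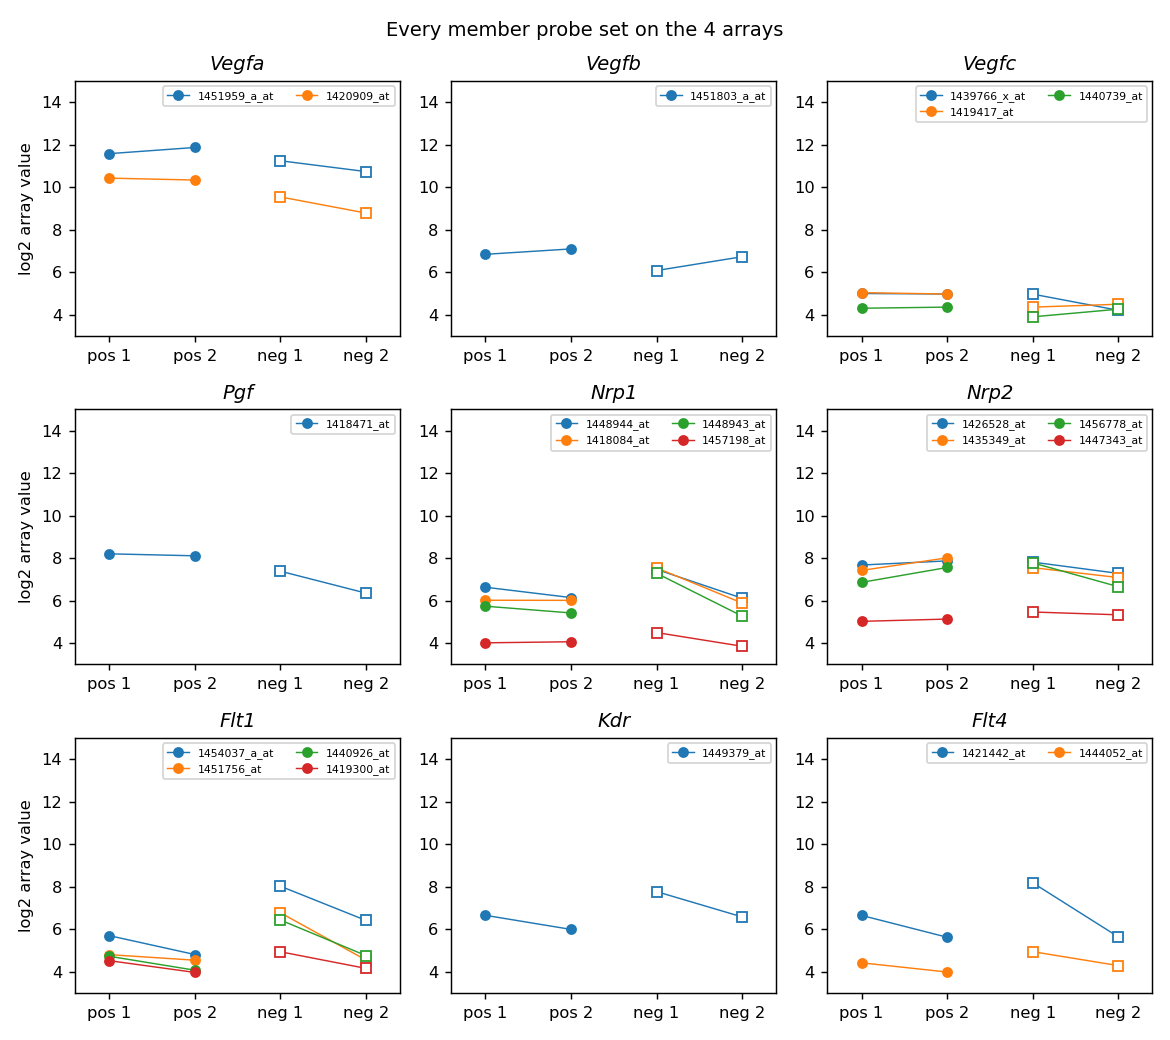
Log2 array value (y axis) of each of the 22 member probe sets on the 2 Sox2-GFP-positive arrays (filled circles) and the 2 Sox2-GFP-negative arrays (open squares), 1 panel per gene and 1 colour per probe set; lines join arrays of a group. The ligand probe sets read higher in both positive arrays, and the receptor and Nrp1 probe sets read highest in negative replicate 1.

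Vegfa (chr17:46016993-46032377, GRCm38.p6), the main angiogenic ligand, was among the bright genes of these arrays. Its probe set 1451959_a_at read 11.58 and 11.87 in positive and 11.25 and 10.74 in negative cells. The second probe set, 1420909_at, read 10.43 and 10.34 against 9.54 and 8.78. In both the groups did not overlap, and negative replicate 2 was the lowest array. Positive minus negative was 0.74 ± 0.26 on the log2 scale (SE, n = 2 per group) by the brighter probe set, a 1.66-fold ratio, and 1.22 ± 0.30 by the other, a 2.33-fold ratio (limma adjusted p = 0.337 and 0.265). By replicate number, the brighter probe set differed by 0.34 for replicate 1 and by 1.14 for replicate 2, and the other by 0.89 and 1.55. The spread between the negative arrays (0.51 and 0.76) was smaller than the group difference in both probe sets.

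Pgf (chr12:85166637-85177785), which encodes placental growth factor, a ligand of Flt1 best known from the placenta and from tumours and wounds, had the largest ligand difference. Its only probe set, 1418471_at, read 8.21 and 8.11 in positive and 7.39 and 6.36 in negative cells. The positive arrays nearly coincided, while the negative arrays lay 1.03 apart. Positive cells lay higher by 1.29 ± 0.38 on the log2 scale (SE, n = 2 per group), a 2.44-fold ratio (limma adjusted p = 0.295), made of 0.82 for replicate 1 and 1.76 for replicate 2.

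Vegfb (chr19:6982472-6987651), whose product binds Flt1 and is known mostly from heart and fat, read 6.84 and 7.10 in positive and 6.08 and 6.73 in negative cells. Here negative replicate 1, not replicate 2, was the lowest array. Positive minus negative came to 0.57 ± 0.29 (SE, n = 2 per group, adjusted p = 0.451 in limma), and the nearest arrays of both groups were 0.11 apart.

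Vegfc (chr8:54077532-54186454), the lymphangiogenic ligand, was dim: its 3 probe sets lay below the array median on all arrays, so these values mainly bound the transcript. Probe set 1419417_at read 5.04 and 4.97 in positive and 4.36 and 4.49 in negative cells, a log2 difference of 0.58 ± 0.18 (SE, n = 2 per group; limma adjusted p = 0.300). For 1439766_x_at the values were 5.00 and 4.98 against 4.97 and 4.21, and for 1440739_at 4.31 and 4.36 against 3.90 and 4.26. The groups did not overlap in any of the 3, but they came within 0.006 of each other in 1439766_x_at. Vegfd, the other lymphangiogenic ligand and no member here, read 7.35 and 5.86 against 6.60 and 6.20, with overlapping groups.

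**Figure D2:**
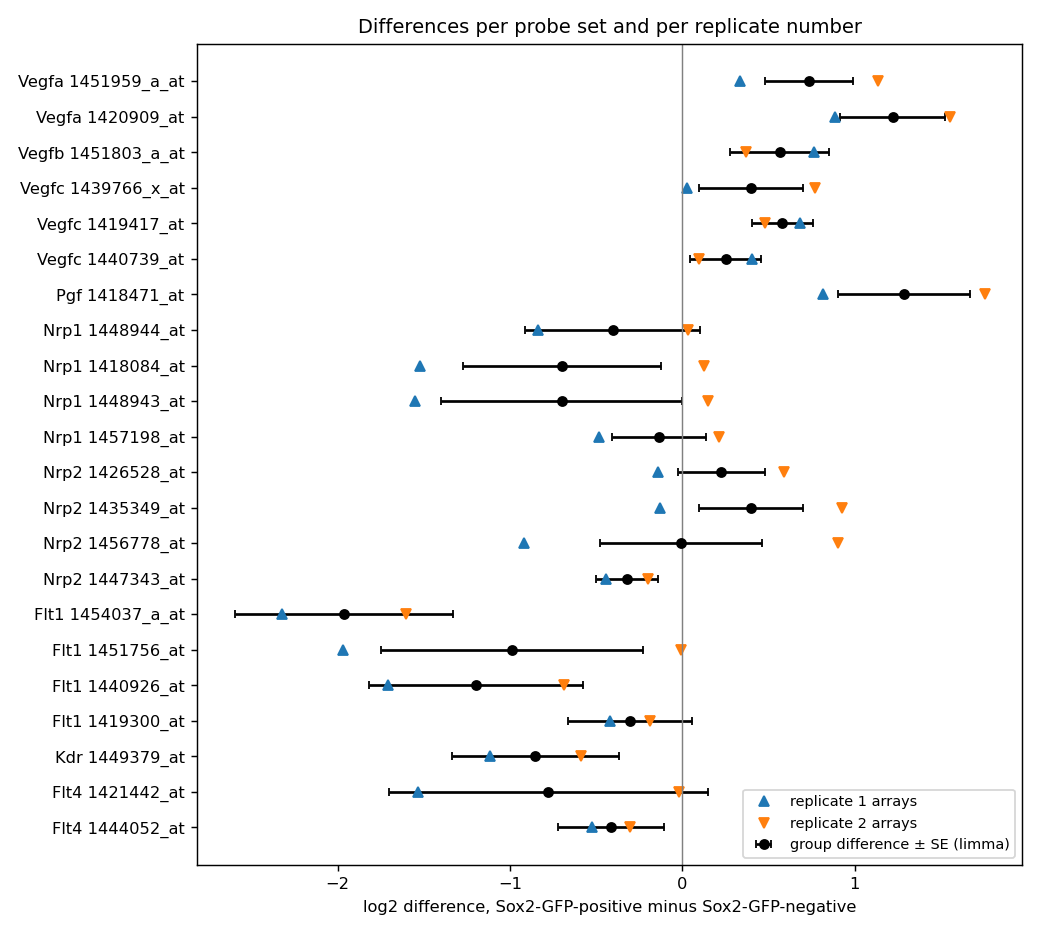
Log2 difference, positive minus negative (x axis), of each member probe set (rows): the black point and bar are the limma group difference and its SE (n = 2 per group), the upward triangle is the difference for replicate 1 and the downward triangle that for replicate 2. The 7 ligand probe sets lie right of 0 by both replicate numbers, the 7 receptor probe sets left of 0 by both, and 7 of the 8 neuropilin probe sets have the replicate numbers on opposite sides.

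Flt1 (chr5:147561604-147726438), the receptor that binds VEGF-A, VEGF-B and placental growth factor and also occurs as a soluble decoy, had the widest difference of all members. Probe set 1454037_a_at read 5.70 and 4.81 in positive and 8.02 and 6.41 in negative cells. The groups did not overlap, and the array of each group labelled replicate 1 was the higher. This gave a log2 difference of -1.97 ± 0.63 (SE, n = 2 per group), which is 3.91-fold lower in positive cells (limma adjusted p = 0.315), with -2.33 for replicate 1 and -1.61 for replicate 2. The value of positive replicate 2 lay below the median of that array (5.51), so the fold is uncertain. The other Flt1 probe sets were dimmer and gave smaller differences: 1440926_at read 4.72 and 4.07 against 6.43 and 4.76 (-1.20 ± 0.62). For 1451756_at the values were 4.80 and 4.54 against 6.77 and 4.55 (-0.99 ± 0.76), so only negative replicate 1 stood out, and without it the difference was 0.12. The fourth, 1419300_at, lay below the array median throughout (3.96 to 4.94). The annotation used here does not say which Flt1 transcripts, membrane-bound or soluble, each probe set reads.

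Kdr (chr5:75932827-75979072), the main signalling receptor of VEGF-A on endothelium, read 6.65 and 5.99 in positive and 7.77 and 6.58 in negative cells. Positive replicate 1 lay above negative replicate 2, so the groups overlapped. Positive minus negative came to -0.85 ± 0.48 (SE, n = 2 per group, adjusted p = 0.491 in limma), with -1.12 and -0.59 by replicate number. Flt4 (chr11:49609679-49652739), the VEGF-C receptor, read 6.65 and 5.62 against 8.18 and 5.64 by probe set 1421442_at. Its difference of -0.78 ± 0.92 (SE, n = 2 per group; limma adjusted p = 0.736) came from the replicate 1 arrays (-1.54), while the replicate 2 arrays differed by -0.02. The dimmer Flt4 probe set, 1444052_at, read 4.42 and 3.98 against 4.94 and 4.29.

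All 7 receptor probe sets were highest in negative replicate 1 and lowest in positive replicate 2. Without negative replicate 1 the log2 difference was -1.16 for Flt1 and -0.26 for Kdr, and it changed sign for Flt4, to 0.49 (brightest probe sets). It changed sign as well for the Flt1 probe sets 1451756_at (0.12) and 1419300_at (0.09), so the shared direction of the receptor probe sets rested in part on that array. The negative arrays differed from each other by 1.61 in Flt1, 1.19 in Kdr and 2.54 in Flt4, so that for Kdr and Flt4 the spread within the negative group exceeded the group difference.

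Endothelial marker genes, which the CD31 gate should deplete, read lower on average in positive cells, as the receptors did. Over a list of 18 such genes, the mean level relative to each gene's 4-array mean was -0.07 and -0.80 in positive cells, against 1.13 and -0.25 in negative cells. That for Kdr was -0.09 and -0.76 against 1.02 and -0.17, and that for Flt1 was -0.54 and -1.43 against 1.79 and 0.18. The list mean differed by -0.88, and by -0.19 without negative replicate 1, beside -0.85 for Kdr and -1.97 for Flt1. Emcn was the 1 endothelial gene of the list with a lower difference than Flt1, at 5.99 and 4.20 against 7.94 and 6.21 (-1.98 ± 0.84). Of the 18, none had its positive arrays above and 5 had them below (35.5% and 14.0% of all genes), among them Vwf, Icam2 and Mmrn2, and 15 were highest in negative replicate 1. Egfl7 (0.48), Sox17 (0.17) and Tie1 (0.12), named after their values were seen, differed the other way, with overlapping groups. Pecam1 differed by -1.36, but for replicate 2 it read higher in positive cells (6.41 against 6.27). The summed linear intensity of the list was 1202 and 691 in positive and 2846 and 974 in negative cells, and 1 and 3 of the 18 lay below the array's lower quartile in positive cells and 0 and 1 in negative cells. Their part in the receptor difference was not tested. Among 3 lymphatic markers, Prox1 read 6.09 and 5.07 against 5.50 and 5.27 and Lyve1 5.42 and 5.69 against 6.32 and 4.99, with overlapping groups, while Mmrn1 was dim, at 3.91 and 3.45 against 4.52 and 3.99. The mean difference of this lymphatic list was -0.16, and it changed sign to 0.19 without negative replicate 1.

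**Figure D3:**
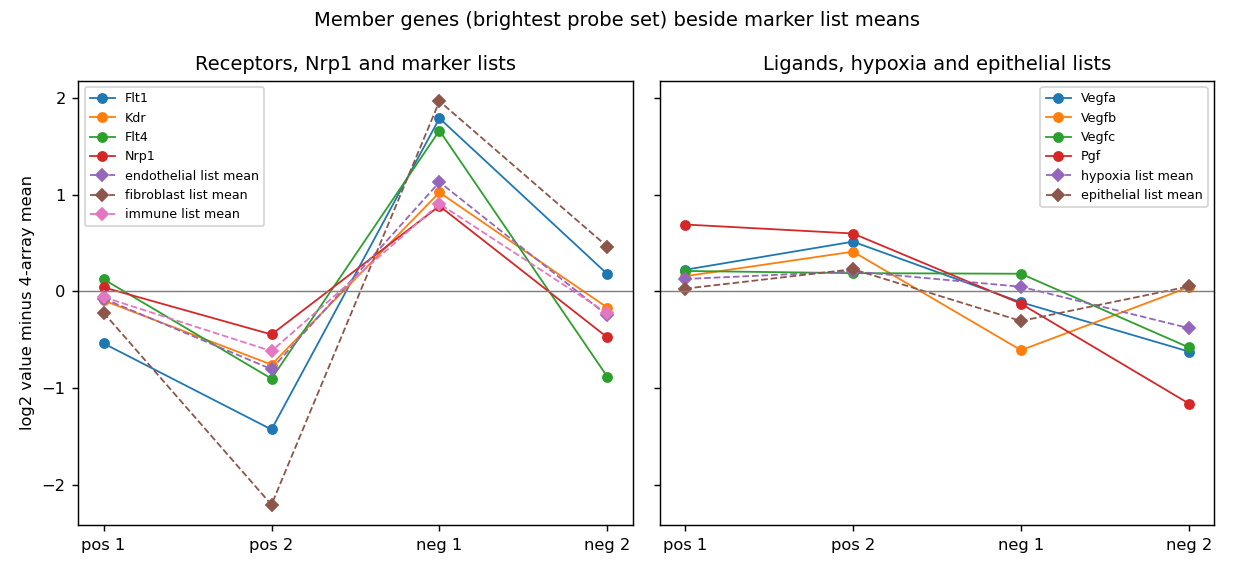
Log2 value minus the 4-array mean (y axis) on each array (x axis) for member genes by their brightest probe set (circles, solid lines) and for the mean over the genes of marker or hypoxia lists (diamonds, dashed lines). Kdr follows the endothelial list mean closely, Flt1 and Flt4 swing wider, and the ligands read highest in a positive array.

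Nrp1 (chr8:128358591-128505476), co-receptor for VEGF-A and semaphorins, was high in 1 array. Probe set 1448944_at read 6.63 and 6.15 in positive and 7.47 and 6.12 in negative cells, 1418084_at read 6.02 and 6.02 against 7.54 and 5.89, and 1448943_at read 5.74 and 5.42 against 7.29 and 5.28. In each, negative replicate 1 was the highest array and negative replicate 2 the lowest, so the positive arrays lay between the negative ones. The log2 difference by the brightest probe set was -0.40 ± 0.51 (SE, n = 2 per group, adjusted p = 0.750 in limma), and without negative replicate 1 it was 0.27. Between the replicate 1 arrays Nrp1 differed by -0.84 to -1.55 in these 3 probe sets, and between the replicate 2 arrays by 0.03 to 0.15. The fourth probe set, 1457198_at, was dim (3.86 to 4.50).

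Endothelial, fibroblast and macrophage genes, of cell types that also make Nrp1, were high in the same array. Relative to its 4-array mean, Nrp1 read 0.04 and -0.45 in positive and 0.88 and -0.48 in negative cells. The endothelial list mean was -0.07 and -0.80 against 1.13 and -0.25. The fibroblast and pericyte list (16 genes) had mean levels of -0.22 and -2.20 in positive and of 1.96 and 0.46 in negative cells, and without negative replicate 1 its mean difference was -1.67 in place of -2.43. Of its genes, 15 had both positive arrays below both negative ones and none had them above, beside 14.0% and 35.5% of all genes, among them Mfap5, Postn, Rgs5 and Fap. Its summed intensity was 19625 and 4962 against 59242 and 28247. The leukocyte and macrophage list (15 genes) had mean levels of -0.06 and -0.62 against 0.90 and -0.23, and a summed intensity of 1223 and 856 against 3057 and 1061. Its mean difference was -0.68, and -0.11 without negative replicate 1. In that list 3 genes lay below (C1qb, Cd3e and Laptm5) and 1 above (Cd68, named after its values were seen). The share below was near that of all genes (14.0%), and the share above was smaller than theirs (35.5%). The list median was -0.57, and -0.01 without negative replicate 1. Of the genes of the sort, Pdgfra, which encodes CD140a, read 5.93 and 4.85 against 7.83 and 5.96, and Ptprc, which encodes CD45, 4.98 and 4.34 against 4.97 and 4.18. Nrp1 differed from the fibroblast list in negative replicate 2, where Nrp1 was at its lowest and the list lay above both positive arrays. The part of these cell types in the Nrp1 values was not tested.

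Nrp2 (chr1:62703317-62818692), the co-receptor for VEGF-C and for other semaphorins, had opposite differences by replicate number in 3 of its 4 probe sets. Probe set 1426528_at read 7.68 and 7.87 in positive and 7.82 and 7.29 in negative cells, a log2 difference of 0.22 ± 0.25 (SE, n = 2 per group; limma adjusted p = 0.720). For 1435349_at the values were 7.43 and 8.02 against 7.56 and 7.09, and for 1456778_at 6.86 and 7.56 against 7.78 and 6.66. The last of these differed by -0.92 for replicate 1 and by 0.90 for replicate 2, and by -0.01 between the groups. Without negative replicate 1, its highest array, that group difference was 0.55. The dim probe set 1447343_at had both positive arrays below (5.03 and 5.14 against 5.47 and 5.34). The 4 probe sets therefore gave no common direction for Nrp2.

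Class 3 semaphorins and plexins, which include other ligands and partners of the neuropilins, went both ways. Of 12 class 3 semaphorin and plexin genes, 4 had the positive arrays above and 3 had them below, near the shares of 35.5% and 14.0% among all genes, and none passed the limma test. Sema3f, a repulsive ligand of Nrp2, read 8.32 and 8.70 against 7.57 and 7.30 (1.07 ± 0.23, adjusted p = 0.247), and Sema3c, a ligand of both neuropilins, 10.03 and 9.61 against 8.63 and 9.05. Plxna3, a signalling partner, read 6.31 and 5.95 against 5.40 and 5.44, and Sema3e, which acts through Plxnd1, 4.28 and 4.44 against 4.85 and 5.09.

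The proteins that process VEGF-C into its active form were measured by 5 genes, of which none had the positive arrays above and 3 had them below, beside 35.5% and 14.0% of all genes. Pcsk5, a proprotein convertase, read 4.61 and 3.75 in positive and 7.17 and 5.90 in negative cells (log2 difference -2.35 ± 0.54, limma adjusted p = 0.250). The positive values lay below the array medians and 1 of them below the lower quartile, so no fold is given. With the replicate number as a block and 1 probe set per gene, which called 0.868% of all genes lower and 0.0715% higher, Pcsk5 passed (limma adjusted p = 0.0326). Its difference was -1.72 without negative replicate 1. Ccbe1, a secreted cofactor of the cleavage, read 4.57 and 4.24 against 5.52 and 5.00, and Adamts3, the protease, was dim on all arrays (3.69 to 4.13). Furin (10.48 and 11.36 against 10.68 and 10.81) and Pcsk7 (7.27 and 7.60 against 7.16 and 7.37) had overlapping groups. The fibroblast list given above lay lower in positive cells as well, and its part in the Pcsk5 values was not tested.

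Hypoxia-inducible factors induce Vegfa in low oxygen, and their targets were read beside it. Of 24 genes for these factors, their regulators and their targets, 12 had the positive arrays above and 2 had them below, beside 35.5% and 14.0% of all genes. Their median log2 difference was 0.35, against 0.14 over all genes, with 0.09 for replicate 1 and 0.48 for replicate 2. Over all genes these medians were 0.19 and 0.06, so the list lay below all genes by the first number and above them by the second. None of the 24 passed the limma test (lowest adjusted p = 0.261), and 3 lay above at an unadjusted p under 0.05, with 0 below, beside 9.81% and 5.05% of all genes. Bnip3, a mitochondrial target, read 10.81 and 11.17 against 10.12 and 8.70, Egln1, an oxygen-sensing hydroxylase, 11.11 and 11.06 against 10.41 and 10.33, and Pdk1, a kinase that restrains pyruvate use, 8.15 and 8.44 against 7.47 and 7.80. Hk2, a hexokinase, had the opposite sign, reading 10.94 and 10.77 against 11.50 and 11.23. Of the factors themselves, Hif1a and Epas1, named after their values were seen, went opposite ways. Hif1a read 12.55 and 12.77 against 12.46 and 12.15, and Epas1 read 9.40 and 9.58 against 10.66 and 9.81. The Epas1 difference of -0.75 was -0.32 without negative replicate 1.

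Other secreted factors that act on vessels lay lower as a list, by an amount that depended on 1 array. Of 18 such genes, 2 had the positive arrays above and 8 had them below, beside 35.5% and 14.0% of all genes, with a median log2 difference of -0.32. Without negative replicate 1 there were 8 above and 8 below, beside 46.5% and 23.9% of all genes, with a median of 0.01 against 0.13 over all genes. The share above then lay near that of all genes, and the share below stayed larger than theirs. None passed the limma test with all arrays and no block. Timp3, a metalloprotease inhibitor that also blocks VEGF binding to Kdr, read 7.55 and 6.69 against 9.66 and 9.55, 5.58-fold lower in positive cells (-2.48 ± 0.33, limma adjusted p = 0.226). Thbs1, an inhibitor of angiogenesis, read 10.61 and 10.65 against 11.70 and 11.48 (-0.96 ± 0.18, adjusted p = 0.243). Ccn2, a matricellular protein, read 6.62 and 4.64 against 9.99 and 7.87, and Cxcl12, a chemokine of stromal cells, 6.23 and 5.41 against 7.08 and 6.70. With the replicate block and 1 probe set per gene, Timp3 and Ccn2 passed (limma adjusted p = 0.0372 and 0.0262), and without negative replicate 1 their differences were -2.43 and -2.24. The fibroblast list lay on the same side as these genes, and its part in them was not tested.

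Signalling genes downstream of the receptors showed little common direction. Of 25 measured, 7 had the positive arrays above and 4 had them below, near the shares among all genes (35.5% and 14.0%), with a median log2 difference of 0.04. Gab1, a docking protein, read 7.67 and 7.72 against 8.28 and 8.77, Pik3r1, a regulatory subunit of PI3-kinase, 7.80 and 8.39 against 9.10 and 8.80, and Fyn, a Src family kinase, 5.07 and 5.21 against 7.17 and 5.81. The Fyn difference of -1.35 was -0.67 without negative replicate 1. Map2k2, a kinase upstream of ERK, read 9.51 and 9.55 against 9.03 and 9.02. None passed the limma test (lowest adjusted p = 0.285). Among 9 epithelial markers the mean level was 0.03 and 0.23 in positive and -0.31 and 0.05 in negative cells, a difference of 0.26, with 5 genes above and 2 below, beside 35.5% and 14.0% of all genes. The list median was 0.04, and without negative replicate 1 the mean difference was 0.08. Named after their values were seen, Krt18 read 5.48 on that array and 7.41 to 8.01 on the others, while the groups lay only 0.01 apart in Krt14 (above) and 0.002 apart in Krt5 (below). Itgb4, an integrin of basal keratinocytes, read 11.90 and 12.37 against 10.95 and 10.88, and Cdh1, the epithelial cadherin, 9.64 and 10.36 against 10.74 and 11.18.

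The genes whose pattern over the 4 arrays was most like that of Vegfa and Nrp1 were found by the Euclidean distance between log2 values centred on each gene's mean, among 16313 named genes. Nearest to Vegfa were Gsto1 (distance 0.05), Cdk20, Sbk1, Tpi1 and Pon3 (0.09), and Tpi1, a glycolytic enzyme, read 11.52 and 11.69 against 11.07 and 10.60. Nearest to Nrp1 were Ccl4 (0.03), Nr1h3, Slfn4, Mrvi1 and Neurl3 (0.14), and Ccl4, a chemokine, read 5.92 and 5.43 against 6.73 and 5.37. With 4 arrays, many genes share such a pattern, and the distance is a description only.

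The scaling of the arrays bears on every direction given here. As deposited, the median over all probe sets was 0.07. Scaling to the bacterial spike-in transcripts raised every difference by 0.69, and all ligand differences grew with it. The differences of Flt1, Kdr and Flt4 then read -1.28, -0.17 and -0.09, and that of Nrp1 changed sign to 0.28; without the Trp spike-in probe sets, that of Flt4 was 0.01. Relative to the median of all probe sets, 9 member probe sets lay higher and 13 lower as deposited and after quantile normalization, and equal-median and spike-in scaling leave that order as it is by construction.

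**Figure D4:**
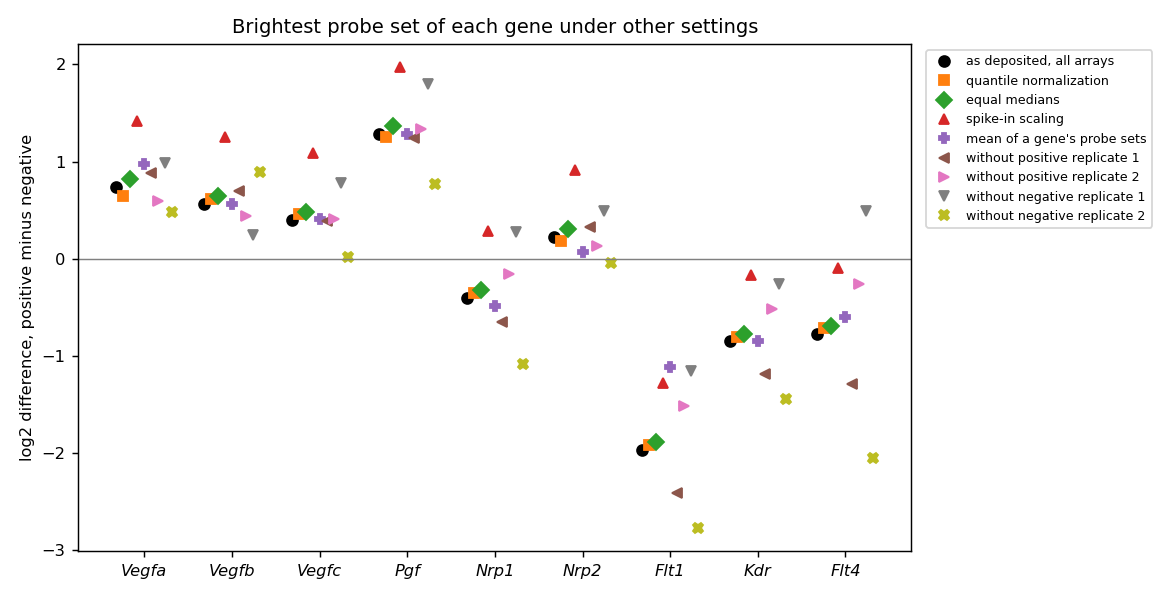
Log2 difference, positive minus negative (y axis), of the brightest probe set of each member gene under the deposited scaling with all arrays (black circles), 3 other scalings, the mean of the gene's probe sets and with each array left out in turn. Vegfa, Vegfb, Vegfc and Pgf stay above 0 and Flt1 and Kdr below 0 under the settings drawn, while Nrp1, Nrp2 and Flt4 fall on both sides.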

How the data were processed

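RNA of 4 sorted samples was hybridised to Affymetrix Mouse Genome arrays, 1 array per sample, per the labels' protocols. The authors deposited log2 values for 45101 probe sets (2.73 to 14.36); the log2 scale was read from the values. The submitters' processing notes name R 2.14.0, and which background correction, normalization and probe summary was used is not stated. There are no detection calls, and the number of arrays limits the precision.

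Groups and replicate numbers came from the sample titles. No test included the 64 control probe sets. Genes were named from the platform annotation where it gives 1 symbol (34945 probe sets; 932 have several and 9160 none); coordinates are from RefSeq, GRCm38.p6, matched by gene number for 9 of the 9 members, and promoters for 9. A gene is read by its brightest probe set on average.

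The test was limma (3.58.1, in R 4.3.3; lmFit and eBayes) on all 45037 probe sets with a group term alone and Benjamini-Hochberg adjustment over all of them; it has 2 residual and 2.56 prior degrees of freedom, and the code was tested on simulated data. Numbers are shared by both groups but not stated to mark a tumour. The block is therefore an alternative. It leaves 1 residual degree of freedom (with 3.56 prior over all probe sets), so its calls rest largely on the prior variance. All members and lists were chosen with earlier results of these data known. Named are all member probe sets, up to 4 genes of each list with the smallest p (all of a list of 5 or fewer), the sort genes, and the 5 genes nearest in pattern to Vegfa and Nrp1. Alternatives were the block, quantile, equal-median and spike-in scaling, a filter on dim probe sets, gene-level values, other priors, an adjusted p under 0.1 and leaving out each array. Added after seeing the data were lists and single probe sets without negative replicate 1, spike-in scaling without the Trp probe sets, which read near the array floor, and the block with 1 probe set per gene.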

Additional observations from a re-analysis of the deposited data

How the results depend on the processing

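The number of member probe sets past the limma threshold was 0 in both directions with and without the replicate block (0 higher and 0 lower), and also under quantile and equal-median scaling, without dim probe sets, at gene level, with other priors, at an adjusted p under 0.1, without each array, and with the block and 1 probe set per gene; at an unadjusted p under 0.05 there were 4 higher and 1 lower (3 and 3 with the block). Spike-in scaling, which shifts all probe sets, called 6 of 22 higher, or 9 without the Trp probe sets, beside 40.5% and 59.3% of all probe sets, so the members' share was below the background. The block changed no call among the members; the difference of replicate 1 from replicate 2 correlated between the groups with r = 0.18 across probe sets, so the pairing is not settled. With the block and 1 probe set per gene, Flt1 had a limma adjusted p of 0.0520, and Pcsk5 (0.0326), Timp3 (0.0372), Ccn2 (0.0262) and Emcn (0.0390) passed, as did 7 fibroblast and pericyte genes (Mfap5, Rgs5, Lum, Col6a1, Dcn, Pdgfrb and Dpt; 0.0262 to 0.0475), all lower in positive cells. Probe sets with groups that do not overlap numbered 7 above and 3 below. With spike-in scaling, with or without the Trp probe sets, they were 11 and 0, where 34532 of all probe sets lay above and 1192 below (13359 and 8305 as deposited). With equal medians the members gave 7 and 2, and 16993 and 6381 of all lay above and below. Without dim probe sets (13 members tested), with 1 probe set per gene and with probe sets averaged by gene (9 genes tested) they were 4 and 1, because fewer were tested. With 1 probe set per gene, 35.5% of all genes lay above and 14.0% below. Leaving out each array gave 7 to 14 above and 3 to 13 below, with fewer arrays to separate. The background rises as well: without negative replicate 1, 46.5% of all genes by their brightest probe set lay above and 23.9% below. These are shares of genes, while the member counts are of probe sets, so they are not directly comparable. Shares over all features are not given for the other settings, so those counts are a description only. Without negative replicate 1, Nrp1 (0.27) and Flt4 (0.49) changed sign; without negative replicate 2, Nrp2 did (-0.0411). Spike-in scaling turned Nrp1 to 0.28, and to 0.39 without the Trp probe sets, where Flt4 was 0.0136. With each array left out in turn, the log2 difference ran from 0.48 to 0.99 for Vegfa, 0.24 to 0.89 for Vegfb, 0.02 to 0.78 for Vegfc, 0.77 to 1.80 for Pgf, -2.77 to -1.16 for Flt1, -1.45 to -0.26 for Kdr, -2.05 to 0.49 for Flt4, -1.08 to 0.27 for Nrp1 and -0.04 to 0.49 for Nrp2. With no detection calls, dim probe sets (Vegfc and some of Flt1, Flt4, Nrp1 and Nrp2) have only a bound.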
